A study of Mus musculus with 26 samples.

Results

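Interferon response genes are the genes that cells switch on when interferon, a secreted antiviral signal, reaches them. A list of 43 such genes was followed through the RNA libraries of a study of cultured mouse femoral osteoblasts, the cells that build bone. The members were taken by gene symbol. All 43 were found among the 26264 symbols of the count table, and all 43 were among the 16566 symbols with enough counts to test. RNA was sequenced in 18 libraries, 3 in each of 6 groups, all from mice of the C57BL/6J background as far as the labels say. CON-OLD-iBP cells were old controls that received iBP, an abbreviation left unexplained in the labels. CKO-OLD and CKO-YOUNG were old and young cells of Kdm2b fl/fl mice with Ocn-cre and the Ai14 reporter. In these, the CxxC domain of Kdm2b, the part of a PRC1.1 Polycomb subunit that binds DNA, was deleted where the osteocalcin promoter had driven the recombinase. The OLD group was taken from mice aged 18 months and the YOUNG group from mice aged 3 months, for which no driver, reporter or floxed allele is given. CON-YOUNG cells carried Ocn-cre and Ai14 without the floxed allele. Cultures were grown in DMEM with serum. The labels give ages in months for OLD and YOUNG only, and no old control with the driver and without iBP was among the groups analysed here. Whether the 3 libraries of a group stem from different animals or cultures is not stated, and p-values therefore reflect the spread among libraries alone, part or all of which could be technical.

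In the textbook pathway, RNA sensors such as Ddx58 (RIG-I) and Ifih1 (MDA5) detect viral or misplaced nucleic acid and lead to interferon production. Type I interferon binds the receptor chains Ifnar1 and Ifnar2, and the kinases Jak1 and Tyk2 then activate Stat2, which works with Irf9 in the complex called ISGF3. That complex binds a DNA element, the interferon-stimulated response element, in front of antiviral genes such as Isg15 and the Ifit and Oas families. Interferon gamma acts through GAS elements and through Irf1, and is the classical inducer of the immunoproteasome genes Psmb8 and Psmb9 and of the peptide transporter Tap1.

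Promoter sequence was available for 33 of the 43 members in a RefSeq table (GRCm38.p6, 250 bases before to 50 after each start). The core of the interferon-stimulated response element was searched as GAAA, any 2 bases and GAAA again, on both strands, and 14 of the 33 genes (42.4%) held it, against 3.99% of all 27025 genes in the table. The GAS motif, searched as TTCNNNGAA, which reads the same on both strands, was in 9 of the 33 (27.3%), against 9.55% of all genes. Bst2, Oas1a and Eif2ak2 held both motifs. The stretches below were chosen, after the search, because they show the core before the starts of 6 members that the results turn on; capitals mark that core on either strand, and each is read in the direction of its gene. In Isg15 the core repeats with overlap, at 78, 72 and 66 bases before the start.
Isg15: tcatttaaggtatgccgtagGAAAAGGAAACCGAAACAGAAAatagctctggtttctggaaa
Ifit1: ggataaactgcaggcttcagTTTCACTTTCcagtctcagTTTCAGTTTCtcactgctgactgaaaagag
Ifit3: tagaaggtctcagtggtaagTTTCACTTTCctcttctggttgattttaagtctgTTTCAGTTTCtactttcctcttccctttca
Bst2: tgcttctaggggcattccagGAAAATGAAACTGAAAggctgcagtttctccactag
Rsad2: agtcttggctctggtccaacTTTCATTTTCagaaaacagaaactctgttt
Cxcl10: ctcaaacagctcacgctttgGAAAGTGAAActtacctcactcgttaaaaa

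In GRCm38.p6 these stretches are at chr4:156200855-156200916 (Isg15, minus strand), chr19:34640765-34640833 (Ifit1, plus), chr19:34583353-34583436 (Ifit3, plus), chr8:71537567-71537622 (Bst2, minus), chr12:26456543-26456592 (Rsad2, minus) and chr5:92349073-92349122 (Cxcl10, minus). Psmb9 and Tap1 start back to back, and the 225 bases between their starts, at chr17:34187331-34187555 on the plus strand, hold neither motif. They are shown because Psmb9 and Tap1 both fell in the comparison of CON-OLD-iBP with CKO-OLD described further on.
Between Psmb9 and Tap1: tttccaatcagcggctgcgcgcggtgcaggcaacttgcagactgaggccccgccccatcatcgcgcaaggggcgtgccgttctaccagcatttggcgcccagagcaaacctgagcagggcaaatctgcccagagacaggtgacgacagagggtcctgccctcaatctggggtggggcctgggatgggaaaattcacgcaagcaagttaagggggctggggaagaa

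A motif match describes these letters and is not evidence of binding.

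Libraries held 46272076 to 77698781 counts. The share of Malat1, a nuclear RNA, parted them in a way that the labels do not explain. Set 3, above 0.05% Malat1, held all CON-OLD-iBP and CKO-OLD libraries and OLD 2, CKO-YOUNG 3, CON-YOUNG 3 and YOUNG 3. The libraries below 0.05% were divided by group label, since their Malat1 shares overlapped, into set 1 (OLD 1 and 3 and YOUNG 1 and 2) and set 2 (CKO-YOUNG 1 and 2 and CON-YOUNG 1 and 2). Xist, made from the inactive X of female cells, had 391 to 481 CPM (read counts scaled to library size) in set 1. CKO-YOUNG 3 had 372 CPM of it, and no other library had more than 0.404 CPM. The Y-linked gene Ddx3y was at 0 in set 1 and at 21.3 to 91.8 CPM elsewhere, so CKO-YOUNG 3 was the library with both. Whether CKO-YOUNG 3 is a mixture of samples or carries a wrong label was not tested, and the CKO-YOUNG results are given with and without it. Kdm2b over the whole gene was at 51.5, 58.2 and 27.6 CPM in CKO-YOUNG, against 48.8, 52.9 and 19.9 CPM in CON-YOUNG; a whole-gene count does not check the loss of part of the gene. The 10 osteoblast markers made up 1.65 to 6.19% of counts, with Bglap (osteocalcin) at 0 to 0.306 CPM in set 2 and CKO-YOUNG 3, at 9.89 CPM in CON-YOUNG 3 and at 25.2 to 83.6 CPM elsewhere. The 22 macrophage and monocyte markers took 1.09 to 1.65% of counts for set 1 libraries. The range was 0.0144 to 0.0201% for set 2 and 0.0488 to 0.642% for set 3. The 7 osteoclast markers took 0.21 and 0.216% of counts in OLD 1 and OLD 3 and 0.00859 to 0.0351% in the other libraries. In bulk RNA, fewer cells of a type and less RNA per cell cannot be told apart. Cd3e and Siglech, which mark T cells and plasmacytoid dendritic cells, were at 0 in all 18 libraries.

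The mean log2(CPM + 0.1) of the 43 genes was 2.92 ± 0.0685 in CON-OLD-iBP, 3.83 ± 0.629 in CKO-OLD, 3.74 ± 0.435 in OLD, 3.6 ± 1.66 in CKO-YOUNG, 3.56 ± 0.761 in CON-YOUNG and 4.06 ± 0.823 in YOUNG (SD over 3 libraries). The spread within CKO-YOUNG exceeded the distance between any of these group means. CKO-YOUNG 3 had the highest value of its group in 42 of the 43 members, Irf1 being the exception, against 48.1% of all genes tested. It had the highest value of all 18 libraries in 29 members, against 10.3% of all genes tested. CKO-YOUNG 2, from the same labelled group, had the lowest value of all 18 libraries in 19 members, against 8.37% of all genes tested. By library, that mean was 2.92, 2.38 and 5.49 for CKO-YOUNG, against 4.16, 3.81 and 2.7 for CON-YOUNG. The third library was the highest of the knockout group and the lowest of the control group, as the heat map of all members shows.

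**Figure D1:**
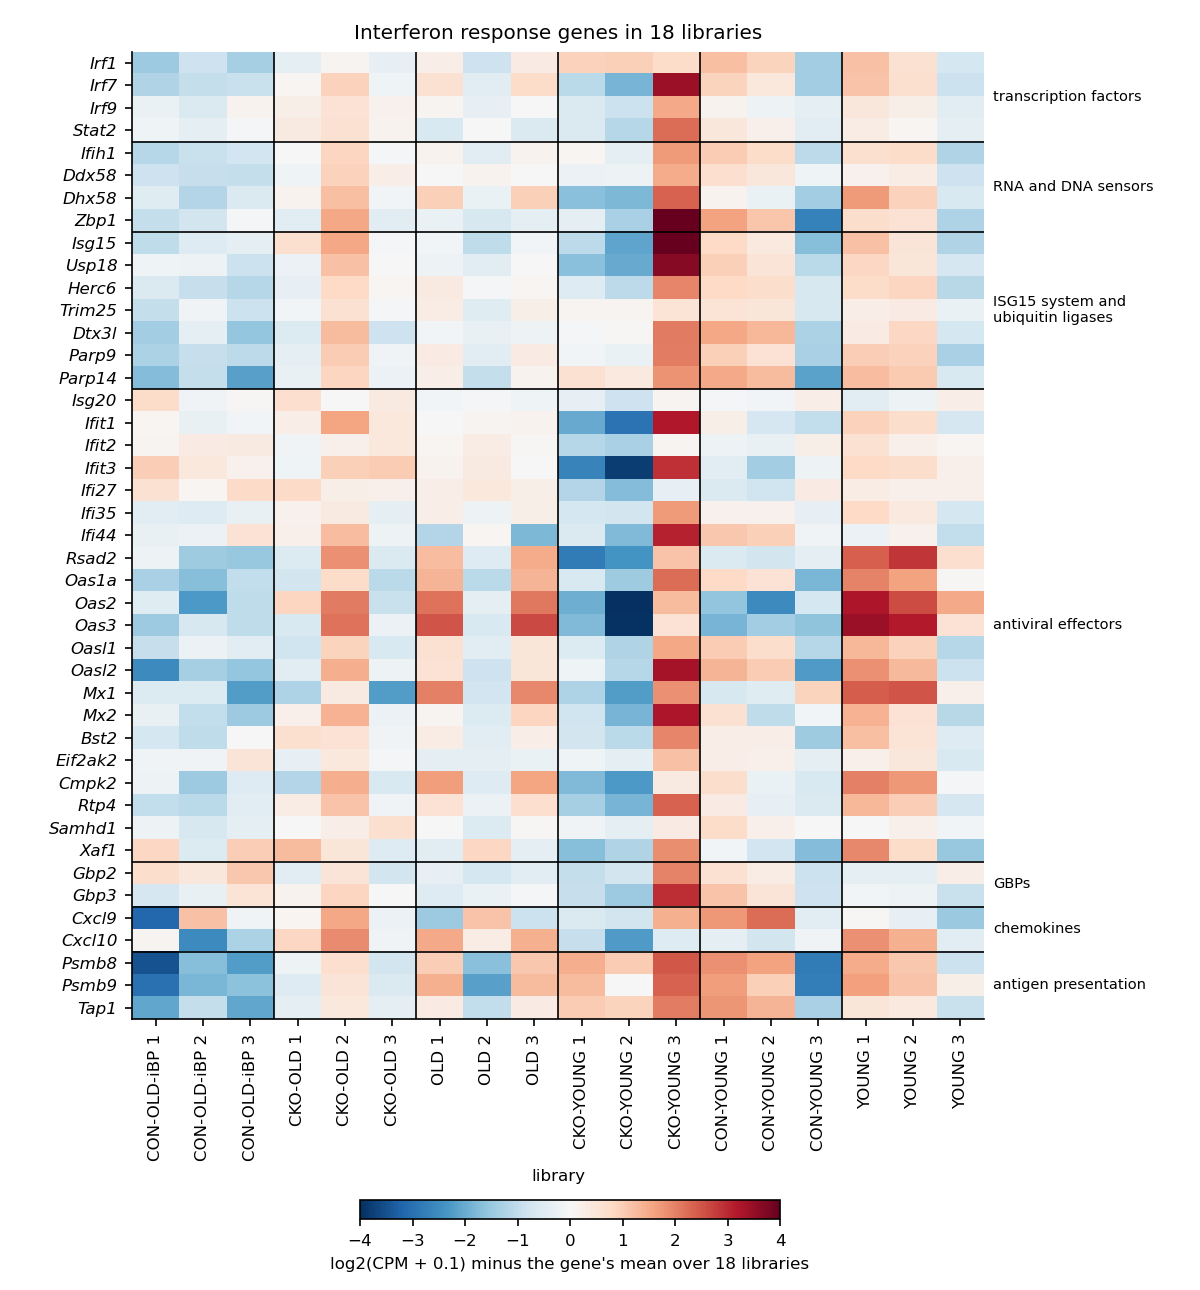
Each row is 1 of the 43 genes, grouped by role, and each column 1 of the 18 libraries; colour gives log2(CPM + 0.1) minus the gene's mean over the 18 libraries. CKO-YOUNG 3 is red over most rows and CKO-YOUNG 1 and 2 blue over many, while Oas2, Oas3, Rsad2, Mx1 and Cmpk2 have their highest values in YOUNG 1 or 2.

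Not every member took part to the same degree. Isg15, a ubiquitin-like protein that is attached to other proteins, ranged from 3.46 to 283 CPM over the 18 libraries, and its highest value was 6.28 times the second highest. Usp18, which removes Isg15 and restrains the type I receptor, had a highest value 5.55 times its second highest, and Zbp1, a sensor of Z-form nucleic acid, 5.28 times. Irf7, the transcription factor that amplifies type I interferon production, followed at 4.91 times. All of these peaks were in CKO-YOUNG 3. At the other end, Isg20, an RNA exonuclease, kept within 6.11 to 18.4 CPM, and Samhd1, which degrades the building blocks of DNA, within 109 to 286 CPM. Trim25, a ubiquitin ligase of the RIG-I route, kept within 29.9 to 87.9 CPM. Ifi27, an interferon-induced mitochondrial protein, ran from 44.5 to 253 CPM, with its 2 lowest values in CKO-YOUNG 2 and CKO-YOUNG 1. A separate group of members peaked in set 1. Oas2 and Oas3 make the oligoadenylate that activates RNase L, and Rsad2 (viperin) blocks viral replication. Mx1 was listed here among the antiviral effectors, and Cmpk2 is a nucleotide kinase. The highest values of all these genes, and that of Xaf1, were in YOUNG 1 or YOUNG 2, the libraries with macrophage shares of 1.65% and 1.09%. Whether these cells account for the peak was not tested. The remaining members were mostly at their highest in CKO-YOUNG 3 as well. Dhx58, the LGP2 regulator of RNA sensing, ranged from 2.77 to 50.5 CPM, and Rtp4, a chaperone induced by interferon, from 4.95 to 93.1 CPM. Parp14 ranged from 4.66 to 75.3 CPM, Parp9 from 8.32 to 84.6 CPM and its partner Dtx3l from 4.4 to 55.3 CPM. Eif2ak2 (PKR), which halts translation on viral RNA, ranged from 24.7 to 84.6 CPM and Ifi35 from 13.2 to 71.8 CPM. Mx2 stayed between 0.3 and 13.5 CPM, Oasl1 between 0.6 and 4.55 CPM and Cxcl9 between 0 and 4.01 CPM, with the highest Cxcl9 value in CON-YOUNG 2. Counts of Ifit3, Oas1a, Gbp2 and Gbp3, which have close paralogs, are uncertain where reads could be split.

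The comparison of CKO-YOUNG with CON-YOUNG asks what the Kdm2b deletion did in young cells. Over all 3 libraries a side no member passed the test, and 0.127% of all genes did (edgeR quasi-likelihood test, Benjamini-Hochberg adjusted p under 0.05). No member had an unadjusted p under 0.05, against 5.48% of all genes; DESeq2 called 0 members, against 1.43% of all genes, and limma-voom with quality weights called 7, all lower, against 2.98% of all genes. The median log2 fold change of the members was 0.61, against -0.01 for all genes tested, and 35 of the 43 were positive. In no member did the groups part, against 5.32% of all genes higher and 3.19% lower. Without CKO-YOUNG 3 the median of the members was -1.15; without CON-YOUNG 3 it was 0.29 and without CKO-YOUNG 2 it was 0.995.

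Among the transcription factors, Irf7 was at 7.44, 4.31 and 173 CPM in CKO-YOUNG, against 29.6, 21.2 and 6.01 CPM in CON-YOUNG. Stat2 was at 22.8, 15.2 and 159 CPM in CKO-YOUNG, against 46.8, 39 and 25 CPM in CON-YOUNG. CKO-YOUNG 3 lay above every CON-YOUNG library in both genes, and CKO-YOUNG 1 and 2 lay below CON-YOUNG 1 and 2. Irf9 followed with 20.2, 16.6 and 86.6 CPM in CKO-YOUNG, against 33.3, 26.3 and 23.6 CPM in CON-YOUNG. Irf1 did not, with 46.6, 48.1 and 41.2 CPM in CKO-YOUNG, against 57.4, 46 and 9.28 CPM in CON-YOUNG; its low library was CON-YOUNG 3.

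The sensors showed the same split. Ifih1 was at 17.4, 12.5 and 53.6 CPM in CKO-YOUNG, against 33.1, 27.2 and 7.97 CPM in CON-YOUNG. Ddx58 was at 43.6, 43.8 and 143 CPM in CKO-YOUNG, against 81.3, 69.2 and 44.9 CPM in CON-YOUNG. Zbp1 was at 3.09, 1.61 and 66.8 CPM in CKO-YOUNG, against 12.7, 8.97 and 0.538 CPM in CON-YOUNG. For each sensor the third library stood highest in CKO-YOUNG and lowest in CON-YOUNG. Isg15 was at 7.3, 3.46 and 283 CPM in CKO-YOUNG, against 26.8, 20.2 and 4.59 CPM in CON-YOUNG, and its log2 fold change of 2.51 ± 1.19 (SE) had an adjusted p of 0.916. Usp18 was at 2.35, 1.82 and 97.1 CPM in CKO-YOUNG, against 14.8, 11 and 3.55 CPM in CON-YOUNG. The groups overlapped in every member, so CKO-YOUNG as labelled was neither above nor below CON-YOUNG throughout.

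The effectors of viral restriction gave equally wide ranges. Ifit1, which binds foreign RNA at its cap, was at 3.5, 1.78 and 135 CPM in CKO-YOUNG, against 17.1, 8.95 and 7.28 CPM in CON-YOUNG; its log2 fold change was 2.08 ± 1.07 (SE), adjusted p 0.970. Ifit3, its partner, was at 2.89, 1.25 and 143 CPM in CKO-YOUNG, against 13.7, 7.15 and 16.2 CPM in CON-YOUNG, with 1.99 ± 1.1 (SE), adjusted p 0.989. Both genes carry paired response-element cores in the promoter stretches printed above. Bst2 (tetherin), which holds budding virus at the cell surface, was at 47.2, 37.1 and 306 CPM in CKO-YOUNG, against 95.6, 94.8 and 29.2 CPM in CON-YOUNG. Oasl2 was at 16.9, 8.57 and 191 CPM in CKO-YOUNG, against 48.9, 38.1 and 3.86 CPM in CON-YOUNG. In all 4 effectors CKO-YOUNG 3 was the highest library and CKO-YOUNG 2 the lowest except in Bst2 and Oasl2, where CON-YOUNG 3 was lower. Of the antigen presentation genes, Psmb8 was at 76.6, 56.5 and 156 CPM in CKO-YOUNG, against 98.9, 85.8 and 3.88 CPM in CON-YOUNG, and Tap1 was at 70.8, 64.9 and 145 CPM in CKO-YOUNG, against 120, 90.9 and 14.3 CPM in CON-YOUNG. Cxcl10, a chemokine for activated T cells, stayed low in both groups, at 1.27, 0.442 and 1.72 CPM in CKO-YOUNG, against 1.92, 1.49 and 2.26 CPM in CON-YOUNG.

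**Figure D2:**
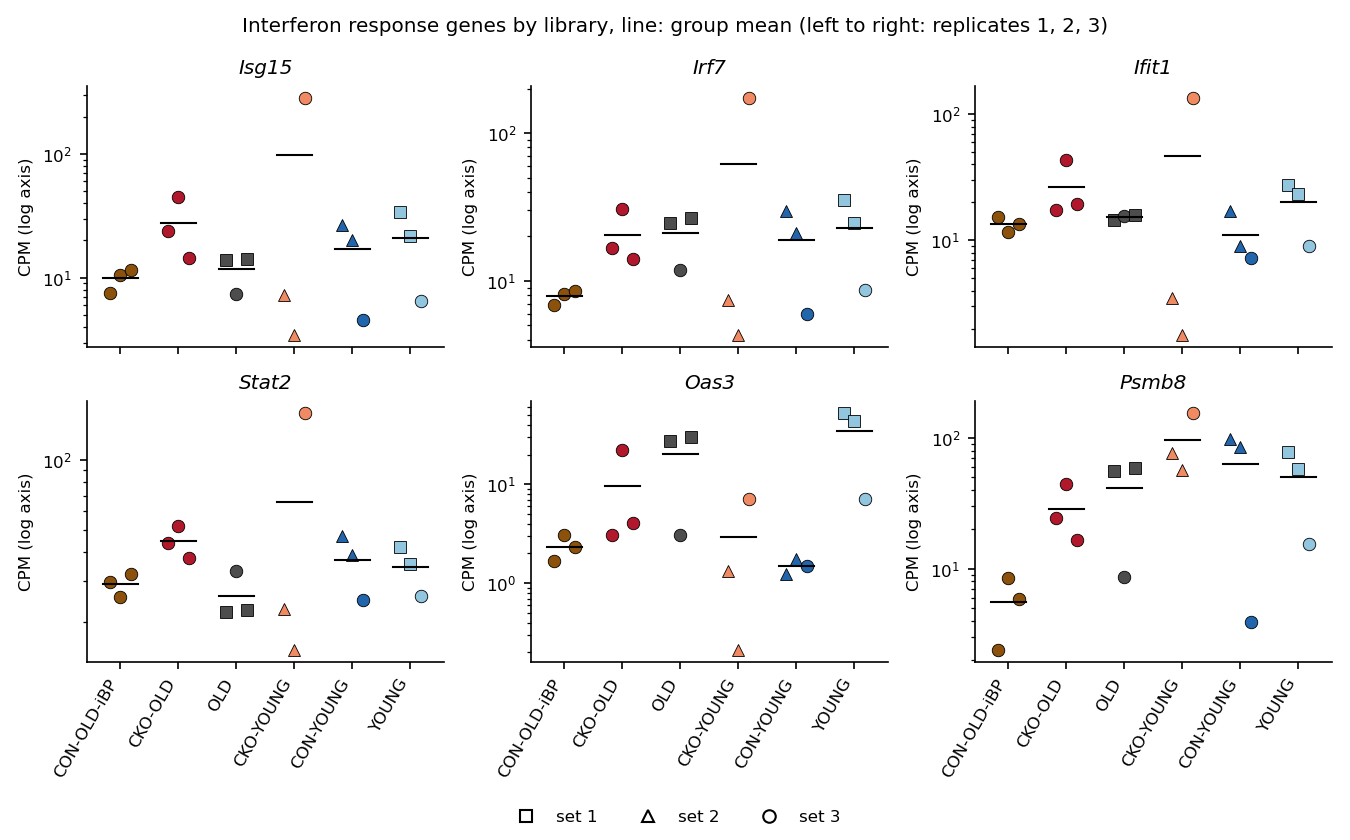
CPM on a log axis for Isg15, Irf7, Ifit1, Stat2, Oas3 and Psmb8, with 1 point per library, its shape giving the library set, and a line at the mean of each group of 3. In Isg15, CKO-YOUNG 3 at 283 CPM stands above every other library and CKO-YOUNG 2 at 3.46 CPM below every other, while Oas3 is highest in YOUNG 1 and 2.

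Libraries were then compared within sets, with 1 coefficient for each group and set and all 18 libraries in the fit. Within set 2, CKO-YOUNG 1 and 2 had negative log2 fold changes against CON-YOUNG 1 and 2 in all 43 members, with a median of -1.18 against 0 for all genes tested. In 38 members both CKO-YOUNG libraries lay below both CON-YOUNG libraries, as they did in 22.5% of all genes tested; the exceptions were Irf1, Oas2, Oas3, Mx2 and Psmb9. Past the threshold 3 members fell (edgeR, adjusted over all genes), as did 0.0845% of all genes, and 0 rose, as did 0.374% of all genes. Irf7 fell by 2.11 ± 0.375 on the log2 scale (SE, adjusted p = 0.0377), Stat2 fell by 1.17 ± 0.219 (adjusted p = 0.0464) and Usp18 fell by 2.63 ± 0.448 (adjusted p = 0.0331). A further 25 members had an unadjusted p under 0.05 without passing, among them Isg15 at -2.13 ± 0.491 (adjusted p = 0.0978) and Ifit1 at -2.3 ± 0.469 (adjusted p = 0.0717). With those that passed, 28 members had an unadjusted p under 0.05 by edgeR, against 1335 of all 16566 genes tested. Macrophage shares were 0.0171% and 0.0144% in these CKO-YOUNG libraries, against 0.0192% and 0.0201% in the CON-YOUNG libraries.

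The third libraries had the opposite sign in most members. CKO-YOUNG 3 against CON-YOUNG 3 is 1 library a side. Its p-values assume that a lone library varies like the other groups, and they compare these libraries, not the conditions. The log2 fold change was positive in 39 of 43 members, and 28 rose past the threshold, as did 3.39% of all genes; 0 fell, against 3.33% of all genes. The median was 2.86 against 0 for all genes. The 4 negative members were Isg20, Ifit2, Ifi27 and Cxcl10. Zbp1 rose by 6.95 ± 1.14 (SE, adjusted p = 0.00688), Isg15 by 5.95 ± 0.818 (adjusted p = 0.00368), Oasl2 by 5.63 ± 1.01 (adjusted p = 0.00969) and Psmb8 by 5.33 ± 0.85 (adjusted p = 0.00624). In 39 members CKO-YOUNG 1 and 2 averaged below CON-YOUNG 1 and 2 while CKO-YOUNG 3 was above CON-YOUNG 3, a pattern found in 26.9% of all genes. CKO-YOUNG 3 had a macrophage share of 0.104%, against 0.0488% in CON-YOUNG 3, and it carried Xist at 372 CPM, against 0.287 CPM. The part of these differences in the result was not tested.

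**Figure D3:**
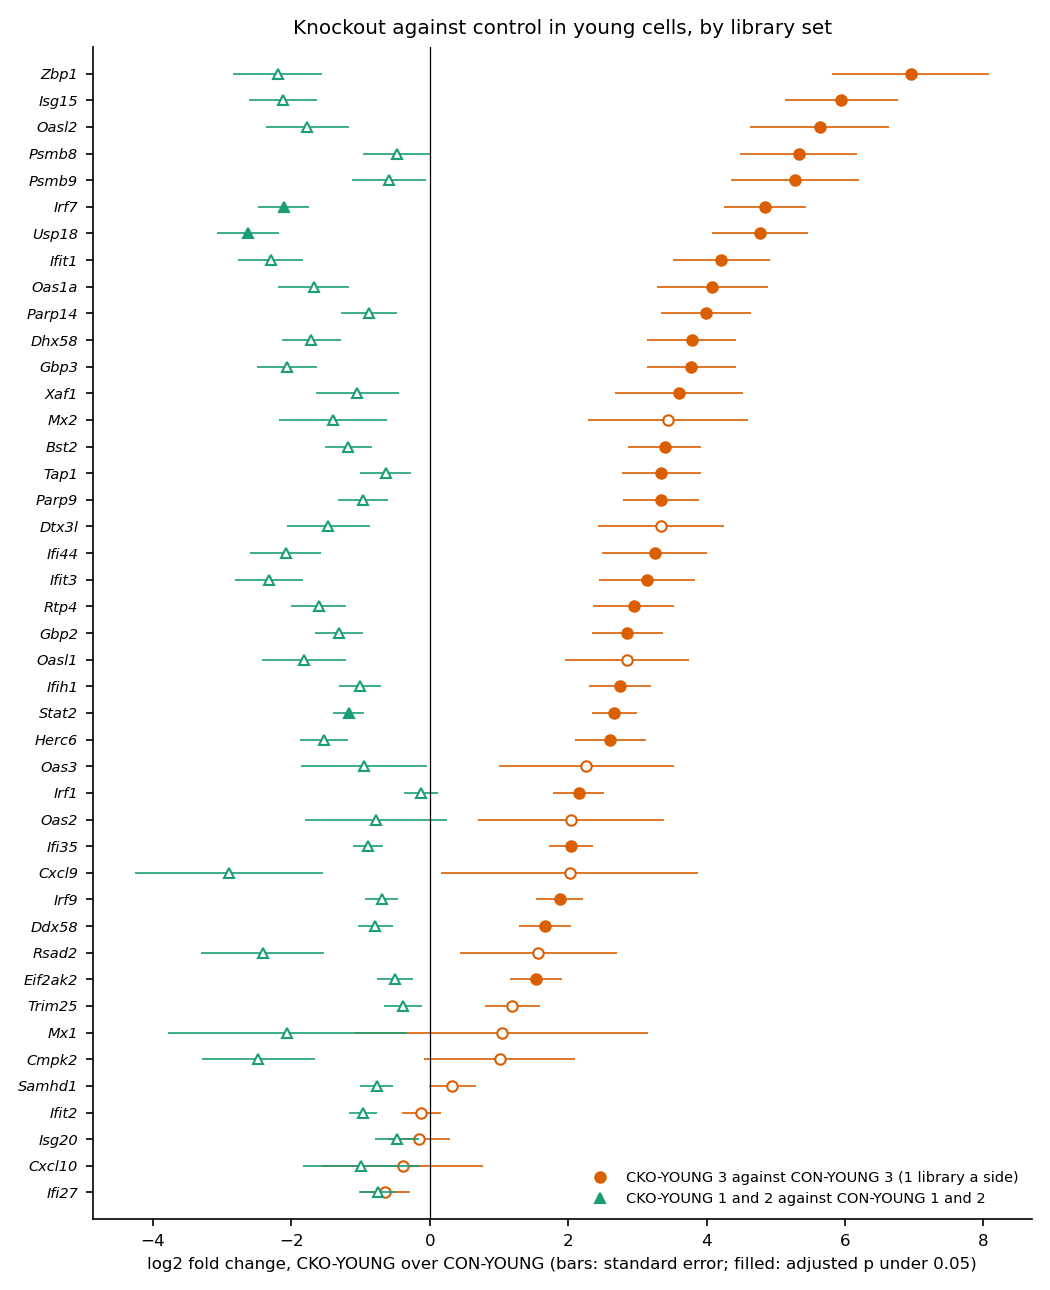
Log2 fold change of CKO-YOUNG over CON-YOUNG for each of the 43 genes, with the standard error as bars, for the third libraries (circles) and for libraries 1 and 2 (triangles); filled symbols passed an adjusted p of 0.05, which for the circles compares 1 library with 1. All 43 triangles lie left of 0 and 39 of the 43 circles lie right of it, so the sign differs between the library sets for most members.

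Of 51 tested other interferon-stimulated genes, 50 were negative within set 2 and 50 were positive in CKO-YOUNG 3 against CON-YOUNG 3, where 28 rose past the threshold; within set 2, 1 fell. All 13 genes of MHC class I presentation were negative within set 2, with a median of -0.435. All 13 were positive in the third libraries, with a median of 1.99. The chemokine Ccl5, chosen here after its values were seen, was at 0.254, 0.336 and 59.5 CPM in CKO-YOUNG, against 1.4, 0.533 and 1.22 CPM in CON-YOUNG. The ligands were close to absent from the RNA. Ifnb1 was at 0 in all CKO-YOUNG and CON-YOUNG libraries and at 0.216 CPM at most, in YOUNG 1. The 5 interferon alpha genes listed, Ifnl2 and Ifnl3 were at 0 in all 18 libraries, and Ifng was detected only in CKO-OLD 2, at 0.0876 CPM. Of 12 ligands listed, Ifnz alone had enough counts to test. The receptor chains were present throughout, with Ifnar1 at 64.4 to 129 CPM and Ifnar2 at 34.5 to 85 CPM. In CKO-YOUNG, Ifnar1 was at 93, 88.8 and 89 CPM close to level across libraries in which the response genes differed.

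The comparison of CKO-OLD with OLD asks the same of old cells, although the OLD mice are not given as carrying the driver and reporter, so that line and knockout cannot be told apart. No member passed the test in edgeR, against 0.00604% of all genes, and none had an unadjusted p under 0.05, against 8.16% of all genes. DESeq2 called 0, against 1.1% of all genes. Limma-voom with quality weights called 12, of which 5 were higher and 7 lower, against 41.1% of all genes. The median log2 fold change was 0.28, against -0.01 for all genes, with 28 of 43 positive. Irf9, Stat2, Isg15, Isg20, Ifit1 and Gbp3 were higher in every CKO-OLD library than in every OLD library, 6 of 43 members, against 8.9% of all genes; 0 were lower throughout, against 8.47% of all genes. Isg15 was at 23.9, 45.1 and 14.5 CPM in CKO-OLD, against 14, 7.45 and 14.1 CPM in OLD. Its log2 fold change was 1.23 ± 1.14 (SE), adjusted p 0.827. Stat2 was at 43.9, 52 and 37.7 CPM in CKO-OLD, against 22.1, 33.2 and 22.6 CPM in OLD. CKO-OLD 2 was the highest library in both genes. Without CKO-OLD 2 the median of the members was -0.18 and without OLD 2 it was 0.0993.

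CKO-OLD 2 had the highest value of its group in 36 of the 43 members, against 35.5% of all genes. Its macrophage share was 0.642%, against 0.234% and 0.148% in CKO-OLD 1 and 3. Oas3 was at 3.1, 22 and 4.04 CPM in CKO-OLD, against 27.4, 3.08 and 30.1 CPM in OLD, so its high libraries were those with the larger macrophage shares in both groups; the part of those cells was not tested. The log2 fold change of Oas3 was -1.06 ± 1.06 (SE), adjusted p 0.843. Ifi44 was at 12.9, 26.1 and 9.72 CPM in CKO-OLD, against 4.93, 11.7 and 3.16 CPM in OLD, a log2 fold change of 1.3 ± 0.909 (SE), adjusted p 0.746. Within set 3, where OLD 2 is the lone OLD library, 40 of 43 members were positive and the median was 0.76. No member passed the adjusted threshold there, where 0.0241% of all genes rose and 0.0302% fell past it. The test of the difference between the knockout effects in old and young cells called 0 members and 0% of all genes; 1 member, Samhd1, had an unadjusted p under 0.05, against 4.81% of all genes. DESeq2 called 0 there, against 0.292% of all genes, and limma-voom with quality weights 12, against 16.4%.

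**Figure D4:**
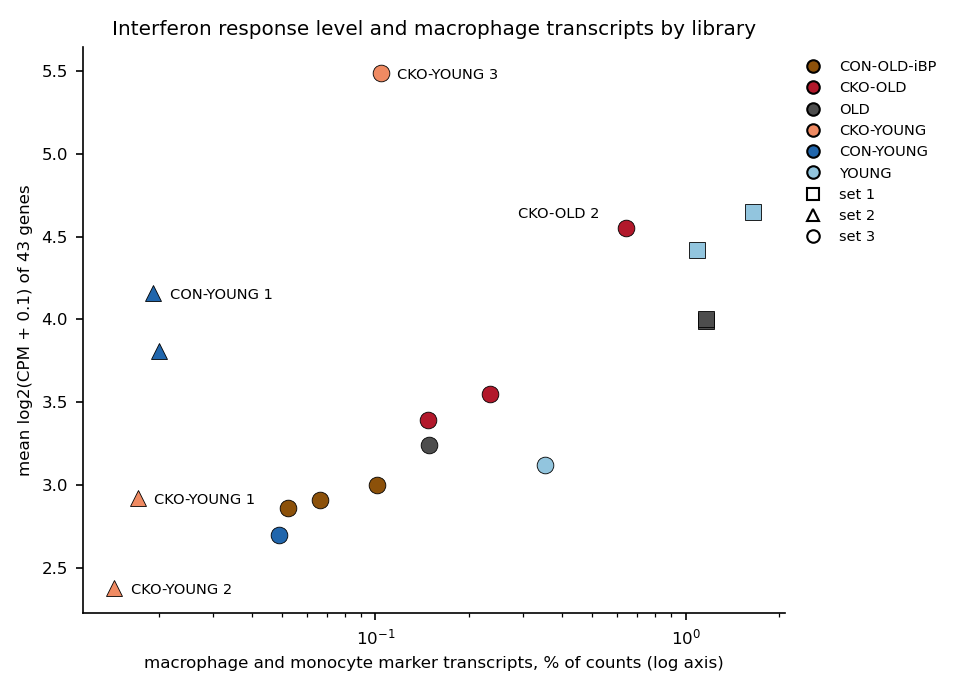
Mean log2(CPM + 0.1) of the 43 genes in each of the 18 libraries against the share of counts from 22 macrophage and monocyte markers (log axis); colour gives the group and shape the library set. CKO-YOUNG 3 has the highest mean, 5.49, at a share of 0.104%, CKO-OLD 2 has 4.55 at 0.642%, and CON-YOUNG 1 has 4.16 at 0.0192%.

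CON-OLD-iBP can be set against CKO-OLD without a difference in library set, since all 6 libraries are in set 3. The groups differ both in iBP and in the Kdm2b deletion, and these cannot be told apart here. Most of the interferon response genes had lower values in the iBP group. The log2 fold change was negative in 39 of 43 members, with a median of -1.04 against -0.01 for all genes. In 21 members every CON-OLD-iBP library lay below every CKO-OLD library, against 16% of all genes, and in 0 above, against 14.5%. With the spread shared over all groups, edgeR called 0 members, against 1.29% of all genes, and 7 had an unadjusted p under 0.05, against 19.6% of all genes. DESeq2 called 1, Ddx58, against 9% of all genes, and limma-voom with quality weights 4, of which 3 were lower, against 17.3% of all genes. With 1 coefficient per group and set, which takes the difference between sets out of the spread, 18 members fell and 1 rose, against 9.94% of all genes that fell and 8.78% that rose. This spread also rests on the library pairs of sets 1 and 2. Their median chi-square, a measure of how far 2 libraries differ, was 2.84 (OLD), 7.14 (CKO-YOUNG), 8.99 (CON-YOUNG) and 20 (YOUNG). Pairs within CKO-OLD and CON-OLD-iBP had 14.1 to 48.5. How far the closer pairs raised the number of calls was not tested.

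The 18 members that fell within the set covered every role but the guanylate-binding proteins and chemokines. Of the transcription factors, Irf1, Irf7 and Stat2 fell. Irf7 was at 6.83, 8.16 and 8.53 CPM in CON-OLD-iBP, against 16.7, 30.5 and 14 CPM in CKO-OLD, a log2 fold change within the set of -1.38 ± 0.3 (SE), adjusted p 0.00932. Irf1 was at 8.93, 14 and 9.87 CPM in CON-OLD-iBP, against 19.3, 26.4 and 19.6 CPM in CKO-OLD, -0.99 ± 0.209 (SE), adjusted p 0.00819. Both genes had every CON-OLD-iBP library below every CKO-OLD library. Irf9 was at 25.2, 20.3 and 33.3 CPM in CON-OLD-iBP, against 35.3, 44.8 and 34.5 CPM in CKO-OLD, and did not pass. Of the sensors, Ifih1, Ddx58 and Dhx58 fell. Ddx58 was at 28.5, 27 and 26.2 CPM in CON-OLD-iBP, against 45.5, 96.3 and 61.3 CPM in CKO-OLD, -1.31 ± 0.214 (SE), adjusted p 0.00231 within the set. Ifih1 was at 7.33, 8.79 and 9.59 CPM in CON-OLD-iBP, against 16.1, 29.8 and 15.6 CPM in CKO-OLD. Neither pair of groups overlapped. Zbp1 was at 2.08, 2.39 and 3.89 CPM in CON-OLD-iBP, against 2.94, 12.1 and 2.95 CPM in CKO-OLD, and overlapped.

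In the Isg15 system, Isg15, Herc6, Trim25, Parp9 and Parp14 fell. Herc6 is the ligase that attaches Isg15 in mice, and Parp9 and Parp14 are PARP family proteins of the interferon response. Isg15 was at 7.5, 10.5 and 11.6 CPM in CON-OLD-iBP, against 23.9, 45.1 and 14.5 CPM in CKO-OLD. Usp18 was at 6.73, 6.68 and 4.14 CPM in CON-OLD-iBP, against 6.48, 17.5 and 7.73 CPM in CKO-OLD, and did not pass. Of 21 antiviral effectors 4 fell, namely Oasl2, Bst2, Rtp4 and Samhd1. Oasl2 was at 3.13, 7.54 and 6.36 CPM in CON-OLD-iBP, against 13.9, 52.1 and 16.3 CPM in CKO-OLD, -2.27 ± 0.503 (SE), adjusted p 0.0105 within the set. Oas2 was at 1.86, 0.459 and 1.24 CPM in CON-OLD-iBP, against 4.79, 11.3 and 1.36 CPM in CKO-OLD, and its log2 fold change of -2.29 ± 1.19 (SE) in the group fit had an adjusted p of 0.300. Here the groups overlapped. Ifit1 was at 15.4, 11.7 and 13.5 CPM in CON-OLD-iBP, against 17.3, 43.2 and 19.4 CPM in CKO-OLD; the groups did not overlap, but the gene did not pass. Bst2 was at 48.4, 38.9 and 80.3 CPM in CON-OLD-iBP, against 123, 117 and 71.7 CPM in CKO-OLD, and overlapped through CON-OLD-iBP 3 and CKO-OLD 3. Rsad2 was at 1.33, 0.514 and 0.466 CPM in CON-OLD-iBP, against 1.01, 5.67 and 0.982 CPM in CKO-OLD, and did not pass. Mx1 was at 0.222, 0.22 and 0 CPM in CON-OLD-iBP, against 0.101, 0.508 and 0 CPM in CKO-OLD, too low to part the groups. Gbp2, a GTPase that attacks the vacuoles of pathogens, rose, at 37.6, 31.1 and 48.4 CPM in CON-OLD-iBP, against 16.7, 32.5 and 13.7 CPM in CKO-OLD.

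All 3 antigen presentation genes fell within the set. Psmb8 was at 2.38, 8.53 and 5.82 CPM in CON-OLD-iBP, against 24.3, 44.8 and 16.7 CPM in CKO-OLD, -2.36 ± 0.432 (SE), adjusted p 0.00425 within the set and 0.200 with the spread of all groups. Tap1 was at 8.22, 18.2 and 8.21 CPM in CON-OLD-iBP, against 27, 47.6 and 27.3 CPM in CKO-OLD. Psmb9 was at 0.667, 1.61 and 1.86 CPM in CON-OLD-iBP, against 4.18, 8.72 and 4 CPM in CKO-OLD. None of these groups overlapped. Stat3, the transducer of interleukin 6 signals, fell by 0.71 ± 0.154 in the group fit (SE, adjusted p = 0.0431). Macrophage shares were 0.0521, 0.0661 and 0.101% in CON-OLD-iBP, against 0.234, 0.642 and 0.148% in CKO-OLD, and 15 of the 22 markers fell within the set. Adgre1 (F4/80), a macrophage surface marker, was at 6.89, 14.3 and 12.1 CPM in CON-OLD-iBP, against 33, 138 and 34.4 CPM in CKO-OLD. Of the other interferon-stimulated genes 20 of 51 fell and 1 rose within the set, and of the 13 MHC class I genes 6 fell. Among all genes 9.94% fell and 8.78% rose in that fit. The part of macrophages in the result was not tested. Without CKO-OLD 2 the median of the 43 members was -0.48 in the group fit.

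Against OLD, the median of CON-OLD-iBP was -0.84, and 0 for all genes, with 32 of 43 members negative. The OLD mice are of another mouse line, not given as carrying the driver and reporter. Line and iBP therefore cannot be told apart in this comparison. edgeR called 0 members, against 0.0241% of all genes, and 9 had an unadjusted p under 0.05, against 23.4% of all genes. DESeq2 called 4, all lower (Oas3, Cxcl10, Psmb8 and Psmb9), against 13.6% of all genes, and limma-voom with quality weights 17, of which 15 were lower, against 40.2% of all genes. In 16 members every CON-OLD-iBP library lay below every OLD library, and in 2, Eif2ak2 and Gbp2, above, against 15.8% and 14.3% of all genes. Oas3 was at 1.68, 3.05 and 2.31 CPM in CON-OLD-iBP, against 27.4, 3.08 and 30.1 CPM in OLD, -3.1 ± 1.14 (SE), adjusted p 0.124. Psmb8 was at 2.38, 8.53 and 5.82 CPM in CON-OLD-iBP, against 55.8, 8.65 and 59 CPM in OLD, -2.88 ± 0.987 (SE), adjusted p 0.106. Psmb9 was at 0.667, 1.61 and 1.86 CPM in CON-OLD-iBP, against 16.4, 1.27 and 14.6 CPM in OLD, -2.96 ± 1.02 (SE), adjusted p 0.107. In each of these genes OLD 1 and OLD 3, of set 1, were high and OLD 2, of set 3, was close to the CON-OLD-iBP libraries. Set against OLD 2 within set 3, the median was -0.22. No member passed the adjusted threshold there, where 0.308% of all genes rose and 0.549% fell past it. Set and group cannot be told apart for OLD 1 and OLD 3 here, and the macrophage shares were 0.0521, 0.0661 and 0.101% in CON-OLD-iBP, against 1.16% in each of OLD 1 and OLD 3. All 7 osteoclast markers were negative in CON-OLD-iBP against OLD, with a median log2 fold change of -7.92, and in CKO-OLD against OLD, with a median of -3.57; 21 of the 22 macrophage markers were negative in each, and their part in the members' values was not tested. CON-OLD-iBP against OLD shares its OLD libraries with CKO-OLD against OLD, and its CON-OLD-iBP libraries with the comparison above.

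Between OLD and YOUNG no member separated. OLD against YOUNG had 39 of 43 members negative, where 54.3% of all genes were negative, and a median of -0.37 against -0.03 for all genes. edgeR called 0 members, against 0% of all genes, and none had an unadjusted p under 0.05, against 3.34% of all genes; DESeq2 called 0, against 0.249% of all genes, and limma-voom with quality weights 1, Rsad2, lower, against 6.68% of all genes. In no member did the groups part, against 5.63% of all genes lower and 5.73% higher. Rsad2 was at 3.74, 1.03 and 4.49 CPM in OLD, against 8.49, 11.8 and 2.51 CPM in YOUNG, -1.3 ± 1.05 (SE), adjusted p 1. Oas2 was at 12.1, 2 and 11.6 CPM in OLD, against 25.4, 16.5 and 7.71 CPM in YOUNG, -0.95 ± 1.13 (SE), adjusted p 1. Oasl2 was at 28.3, 10.6 and 26.7 CPM in OLD, against 67.6, 46.7 and 10.5 CPM in YOUNG, -0.93 ± 1.05 (SE), adjusted p 1. The lowest values were in OLD 2 and YOUNG 3, both of set 3. Markers of other cells differed too. All 7 osteoclast markers were positive, with a median log2 fold change of 5.47 and 6 at an unadjusted p under 0.05, and 20 of the 22 macrophage markers were negative, with a median of -0.48. Acp5, the osteoclast acid phosphatase, was at 596, 25.8 and 632 CPM in OLD, against 7.81, 14 and 6.49 CPM in YOUNG. The part of these cells in the members' values was not tested.

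Irf7 was at 24.5, 11.8 and 26.5 CPM in OLD, against 35.2, 24.8 and 8.71 CPM in YOUNG. Mx1 was at 1.81, 0.177 and 1.67 CPM in OLD, against 2.45, 2.58 and 0.444 CPM in YOUNG. Cxcl10 was at 7.39, 3.11 and 6.91 CPM in OLD, against 9.25, 6.99 and 1.87 CPM in YOUNG. In all 3 genes the set 3 library was the lowest of its group. Isg15 was at 14, 7.45 and 14.1 CPM in OLD, against 34.1, 21.9 and 6.55 CPM in YOUNG. Ifit1 was at 14.6, 15.7 and 15.9 CPM in OLD, against 27.7, 23.4 and 9.04 CPM in YOUNG. Stat2 was at 22.1, 33.2 and 22.6 CPM in OLD, against 42.1, 35.5 and 26 CPM in YOUNG. OLD 2 was thus low in Isg15 but not in Ifit1 or Stat2. Psmb8 was at 55.8, 8.65 and 59 CPM in OLD, against 77.6, 58.4 and 15.4 CPM in YOUNG, with the set 3 library again lowest in each group. YOUNG 3 was lowest of its group in 40 of the 43 members, against 41.3% of all genes, and OLD 2 in 32, against 42.9%. Within set 1, OLD 1 and 3 against YOUNG 1 and 2 gave 41 negative members and a median of -0.55. An unadjusted p under 0.05 was found in 6 members, against 1466 of all 16566 genes by edgeR. None of the 43 was called, where 0.32% of all genes rose and 0.0604% fell. OLD 1 and OLD 3 resembled each other more than any other pair of 1 group, which narrows the spread there. OLD 2 against YOUNG 3, 1 library a side, gave 28 positive members and a median of 0.21. No member was called there, where 0.0181% of all genes rose and 0.0362% fell past the adjusted threshold. Without YOUNG 1 the median of the members over whole groups was -0.0739, without OLD 2 it was -0.16, without YOUNG 2 -0.25 and without YOUNG 3 -0.72.

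**Figure D5:**
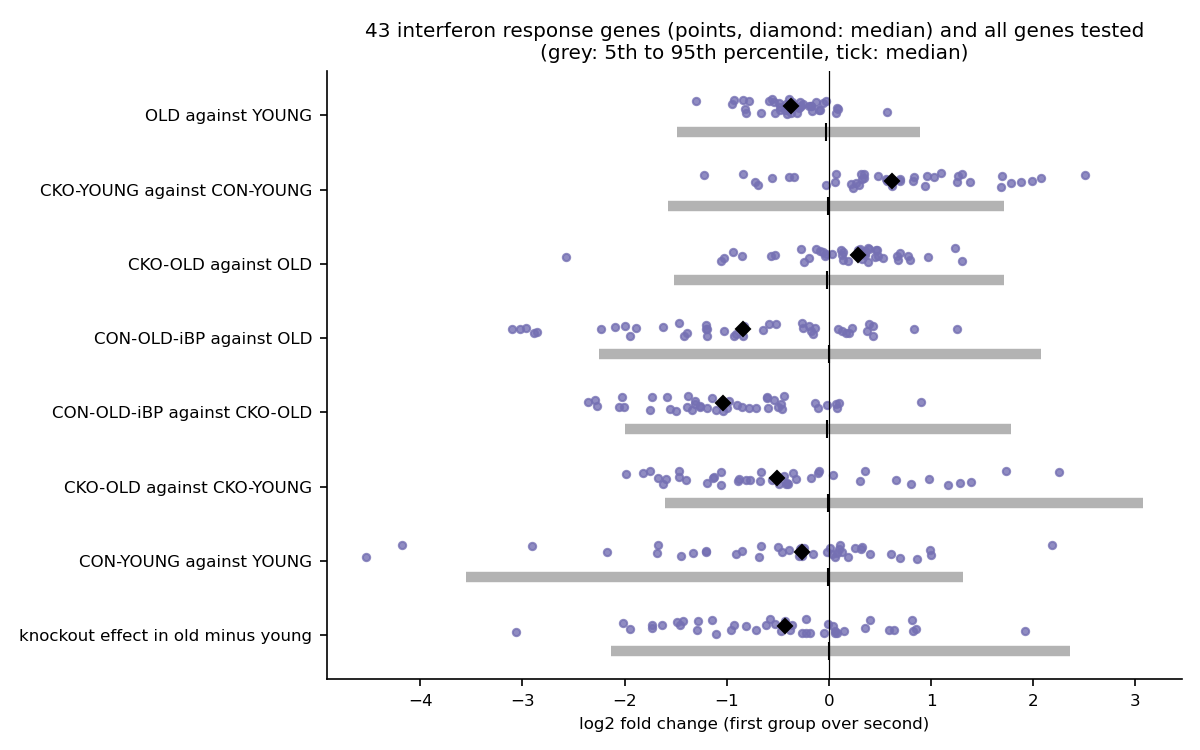
Log2 fold change of the first group over the second for the 43 genes (points, diamond at their median) in each comparison, with the 5th to 95th percentile of all genes tested as a grey bar and their median as a tick. The median of the members is furthest below 0 in CON-OLD-iBP against CKO-OLD, at -1.04, and furthest above 0 in CKO-YOUNG against CON-YOUNG, at 0.61, a value that turns negative without CKO-YOUNG 3.

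CKO-OLD against CKO-YOUNG, the comparison of ages within the knockout, depended on CKO-YOUNG 3. edgeR called 0 members, against 0.7% of all genes, and 5 had an unadjusted p under 0.05, against 24.5% of all genes. DESeq2 called 2, Ifi27 and Cxcl10, both higher, against 12.7% of all genes, and limma-voom with quality weights 21, of which 18 were higher, against 51.5% of all genes. The median was -0.5, against 0 for all genes. Without CKO-YOUNG 3 it was 1.3, and 11 members rose: Irf9, Stat2, Dhx58, Usp18, Ifit1, Ifit2, Ifit3, Ifi27, Rsad2, Oas2 and Rtp4, where 7.66% of all genes rose. CKO-YOUNG 1 and 2 are of set 2 and CKO-OLD is of set 3, so set and age cannot be told apart there. Against CKO-YOUNG 3 alone, within set 3 and with the spread of that lone library taken from the other groups, 25 members fell, as did 2.68% of all genes, and 0 rose, against 2.7% of all genes. Isg15 was at 23.9, 45.1 and 14.5 CPM in CKO-OLD, against 7.3, 3.46 and 283 CPM in CKO-YOUNG, so CKO-OLD lay between the CKO-YOUNG libraries. Its log2 fold change was -1.82 ± 1.16 (SE), adjusted p 0.344. Zbp1 gave -1.99 ± 1.19 (SE), adjusted p 0.311. Cxcl10 was at 4.6, 9.55 and 2.27 CPM in CKO-OLD, against 1.27, 0.442 and 1.72 CPM in CKO-YOUNG, 2.25 ± 0.779 (SE), adjusted p 0.109, and its groups did not overlap. Ifi27 was at 253, 173 and 170 CPM in CKO-OLD, against 65.3, 44.5 and 118 CPM in CKO-YOUNG, 1.39 ± 0.336 (SE), adjusted p 0.0587. Ifi27 and Cxcl10 parted upwards and Irf1, Psmb8 and Tap1 downwards, 2 and 3 of 43 members, against 16.3% and 15.2% of all genes. Macrophage shares were 0.234, 0.642 and 0.148% in CKO-OLD, against 0.0171, 0.0144 and 0.104% in CKO-YOUNG. Of the macrophage markers 21 of 22 were positive, with a median of 2.48, and all 7 osteoclast markers were positive, with a median of 3.6; their part in the result was not tested. Of the pathway genes outside the list Tlr4, a receptor for bacterial lipopolysaccharide, rose by 1.19 ± 0.235 (SE, adjusted p = 0.0392).

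CON-YOUNG against YOUNG sets 2 young groups without the deletion side by side, which differ by the driver and reporter and by more than that. CON-YOUNG had 0.284, 0.404 and 0.287 CPM of Xist and 84.7, 79.2 and 63.7 CPM of Ddx3y, against 432, 391 and 0.251 CPM of Xist and 0, 0 and 70.4 CPM of Ddx3y in YOUNG, whose libraries 1 and 2 are of set 1. Line, set, sex-linked RNA and macrophage share cannot be told apart over these groups. Oas3 was the only member that passed in this or any other group comparison by edgeR, 1 of 43, against 5.55% of all genes; 4 members had an unadjusted p under 0.05, against 23% of all genes. DESeq2 called 3, Rsad2, Oas2 and Oas3, all lower, against 12.8% of all genes, and limma-voom with quality weights 14, of which 12 were lower, against 45.4%. Oas3 was at 1.25, 1.75 and 1.49 CPM in CON-YOUNG, against 52.7, 44.1 and 7.09 CPM in YOUNG, and fell by 4.53 ± 1.22 on the log2 scale (SE, adjusted p = 0.0439). With the replicate number as a block the fall was 4.17 and no longer passed, and with a term for library set it was 0.65. The call was also lost without YOUNG 1, YOUNG 2, CON-YOUNG 1, CON-YOUNG 2 or CON-YOUNG 3, with log2 fold changes between -4.69 and -4.1 and adjusted p between 0.051 and 0.177 by edgeR. Against YOUNG 3 alone, CON-YOUNG 3 gave no call among the members, where 0.0423% of all genes rose and 0.0905% fell past the adjusted threshold. Oas2 was at 0.802, 0.368 and 1.56 CPM in CON-YOUNG, against 25.4, 16.5 and 7.71 CPM in YOUNG, -4.18 ± 1.28 (SE), adjusted p 0.0705. Rsad2 was at 0.985, 0.882 and 1.18 CPM in CON-YOUNG, against 8.49, 11.8 and 2.51 CPM in YOUNG, -2.9 ± 1.11 (SE), adjusted p 0.136. Ifit3, Rsad2, Oas2 and Oas3 were lower in every CON-YOUNG library, 4 of 43 members, against 13% of all genes, and 0 were higher throughout, against 10.1%. The other members did not share this direction: 18 were positive, among them Tap1 and Gbp3, and the median was -0.26 against -0.01 for all genes, or 0.15 without CON-YOUNG 3, 0.0834 without YOUNG 1, -0.44 without CON-YOUNG 1 and -0.54 without YOUNG 3.

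Of 18 tested sensors and adaptors upstream of interferon 5 fell between these groups, and of 51 other interferon-stimulated genes 2 fell, Slfn2 and Ifi207. Among all 16566 genes tested, 634 fell and 285 rose. Tlr8, an endosomal receptor for RNA, fell by 5.12 ± 0.973 (SE, adjusted p = 0.0141), Aim2, a sensor of cytosolic DNA, fell by 4.63 ± 0.751 (adjusted p = 0.0141), and Irf8, a transcription factor of myeloid cells, fell by 4.7 ± 0.917 (adjusted p = 0.0142). Irf8 was at 1.87, 1.43 and 2.39 CPM in CON-YOUNG, against 85.8, 51.4 and 10.7 CPM in YOUNG. In the receptor list Il10rb fell, and of the negative regulators Ptpn6 fell and Rnf125 rose. Macrophage shares were 0.0192, 0.0201 and 0.0488% in CON-YOUNG, against 1.65, 1.09 and 0.351% in YOUNG, and 20 of the 22 markers fell. The part of those cells in the values of Oas3, Tlr8, Aim2 and Irf8 was not tested.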

How the data were processed

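RNA was sequenced in 18 of the 26 samples; CUT&Tag libraries were left out. Raw counts of reads for each gene symbol were deposited by the authors, without normalization as far as the whole-number values tell. FastQC, Trim Galore, HISAT2 and mm39 are named in the submitters' processing notes, without versions. For the counting program, the annotation and the use of strand nothing is given in the sources used here, so overlapping genes cannot be told apart. Samples were grouped by their titles.

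Genes passed edgeR's filterByExpr (minimum count 10, total 15), were scaled by TMM and tested with the quasi-likelihood F test (robust, 1 coefficient per group, 18 libraries, 12 residual degrees of freedom). P-values are two-sided and adjusted by Benjamini-Hochberg over the 16566 genes of a contrast, with a threshold of 0.05. CPM uses TMM library sizes, and 1 count is worth 0.0127 to 0.0203 CPM. The biological coefficient of variation was 51.9%. Set 3 was defined by a Malat1 share above 0.05%, and sets 1 and 2 below it by group label; fits within sets used 10 coefficients and 8 residual degrees of freedom. Fits within sets 1 and 2 were added after the data were seen. The tests ran in edgeR 4.0.16, DESeq2 1.42.0 and limma 3.58.1 under R 4.3.3, and figures were drawn with matplotlib 3.10.9 under Python 3.11.15.

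The members, lists, motifs and rules were chosen with earlier results of these data known. Named genes were a panel (Irf7, Irf9, Stat2, Irf1, Ifih1, Ddx58, Zbp1, Isg15, Usp18, Ifit1, Oasl2, Mx1, Rsad2, Bst2, Cxcl10, Psmb8 and Tap1), members past the threshold, the 3 members of largest change with at least 5 CPM where fewer passed, called pathway genes, up to 3 a list, and Ifnb1; 1 further gene of the rule is not reported here, and other genes were named after their values were seen. Deviations of libraries with 1 number had correlations of 0.23, 0.274 and 0.314 between CKO-YOUNG and CON-YOUNG. Between CON-YOUNG and YOUNG they were 0.168, 0.293 and 0.331. In these groups library 3 alone was in set 3, so the correlations cannot tell pairing from library set. OLD, whose set 3 library is number 2, gave 0.388, -0.24 and -0.364 against YOUNG. CON-OLD-iBP gave 0.0848, 0.315 and -0.133 against CKO-OLD. The replicate block was run in every group comparison, and whether the titles' numbers are true pairs was not tested. OLD 1 and OLD 3 differed beyond counting noise, with a median chi-square of 2.84 against 0.455 from counting, and were kept as 2 libraries. Alternatives were DESeq2, upper-quartile scaling, no filter, limma-voom weights, each replicate left out, a replicate block and library sets.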

Additional observations from a re-analysis of the deposited data

How the results depend on the processing

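Counts of the 43 members past the threshold depended on the test. With no filter CON-YOUNG against YOUNG gave 0. DESeq2 gave 4 in CON-OLD-iBP against OLD, 1 against CKO-OLD, 2 in CKO-OLD against CKO-YOUNG and 3 in CON-YOUNG against YOUNG; 2 members had no adjusted p. Limma-voom with quality weights gave CKO-YOUNG 3 a weight of 0.176, CON-YOUNG 3 0.167, YOUNG 3 0.237 and OLD 2 0.271, all of set 3. OLD 1 had 4.69, OLD 3 4.94 and CKO-YOUNG 1 3.99. This test called 1 in OLD against YOUNG, 7 in CKO-YOUNG against CON-YOUNG, 12 in CKO-OLD against OLD and 17 in CON-OLD-iBP against OLD. It called 4 in CON-OLD-iBP against CKO-OLD, 21 in CKO-OLD against CKO-YOUNG, 14 in CON-YOUNG against YOUNG and 12 for the difference of knockout effects. Leaving out a replicate gave 0 to 11 in CKO-OLD against CKO-YOUNG (11 without CKO-YOUNG 3), 0 to 1 in CON-YOUNG against YOUNG and 0 to 1 in CON-OLD-iBP against OLD (Psmb9, without OLD 2). With a replicate block, CON-OLD-iBP against CKO-OLD gave 4 and CON-YOUNG against YOUNG 0. The block changed no other count. For the block and for the call of Psmb9 the share of all genes called is not given here. These counts therefore cannot be set against that share. A term for library set gave 0 in CON-YOUNG against YOUNG. Within set 3 the counts were 28 for CKO-YOUNG 3 against CON-YOUNG 3, 19 for CON-OLD-iBP against CKO-OLD, 25 for CKO-OLD against CKO-YOUNG 3 and 0 for CON-YOUNG 3 against YOUNG 3, and within set 2 the count was 3.

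Single members changed sign as follows, the cause not being tested. In CKO-YOUNG against CON-YOUNG, Isg15, Ifit1 and Ifit3 were at -1.68, -1.82 and -1.88 under voom weights, -1.68, -2.07 and -2.57 without CKO-YOUNG 3 (up to 3.1, 2.66 and 2.58 without another library), -0.61, -0.77 and -0.92 with the replicate block, -0.55, -0.76 and -0.87 with the set term and -2.13, -2.3 and -2.33 within set 2. In CKO-OLD against CKO-YOUNG, Zbp1 and Isg15 were at 0.54 and 1.6 under voom weights and 1.35 and 2.37 without CKO-YOUNG 3 (down to -3.02 and -2.38 without another library), and Isg15 was at 1.01 with the block. Oas3 in CKO-OLD against OLD was at 1.5 with the set term and 1.66 within set 3, Rsad2 in CON-YOUNG against YOUNG at 0.797 with the set term, Oasl2 in OLD against YOUNG at 0.0141 within set 3 and Psmb9 in CON-OLD-iBP against OLD at 0.12 within set 3.
Depth limited Mx1, Cxcl9 and the interferon ligands, whose values in many libraries rest on few counts.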
